A study of Mus musculus with 12 samples.

Results

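The oligos described here are the array features whose sequence encodes a conserved stretch of an antibody heavy-chain variable (V) region or of a T cell receptor V region. They were chosen by sequence patterns, which were set with earlier results of these data known. The 3 forward reading frames of each oligo were searched, without a stop codon in the frame, for the residues around the conserved tryptophans at the start and at the end of framework 2 and around the last cysteine of framework 3. Of 35852 oligos, 33 matched, 31 with a heavy-chain pattern and 2 with a T cell receptor pattern. No oligo matched both, and 1 oligo matched when the reverse strand was searched in the same way. Spleen RNA of female mice had been labelled with Cy3 and hybridised against a universal reference RNA in Cy5, 1 sample to an array. The 564 Igi strain, a knock-in on the C57BL/6 background whose antibody loci carry the already joined V region genes of both chains of 1 autoantibody, gave 3 samples at 4 months of age, 3 at 8 months and 4 at 12 months. The controls were C57BL/6 mice of 4 months (n = 2), so at 8 and 12 months strain and age cannot be told apart. The sample labels give the genotype as 564+/-, the treatment text says that homozygous 564+/+ animals were used, and the sources used here do not settle which is right. Some of the homozygous colony drank water with ampicillin, metronidazole, neomycin and vancomycin, and whether these animals did is not given. Whether each sample is 1 mouse is not given either, and p-values therefore reflect only how far these samples spread, which may be technical.

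A B cell builds the V region of its heavy chain by joining a V, a D and a J gene segment, and a T cell builds its receptor chains in a like way. Framework stretches hold the domain in shape and are shared between V segments, whereas the loops between them contact the antigen and vary. Spleen is rich in both cell types, and an antibody gene placed at the loci in rearranged form takes the place of this joining in the B cells that express it. An oligo on a framework reports transcripts of the V segment it was made from and can also capture those of close relatives. Which oligo, if any, matches the knock-in heavy chain was not tested.

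The sequences below show the 3 places of the V domain that the oligos cover and the relatives among them. Capitals mark the codons of the matched pattern, and all are printed 5′ to 3′. The first pair lies at the end of framework 3 of heavy chains, with the loop beginning after the capitals. The second pair matched the same pattern and read lower in 564 Igi than in C57BL/6.
M400005043: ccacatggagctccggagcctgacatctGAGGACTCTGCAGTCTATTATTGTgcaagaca
M400007916: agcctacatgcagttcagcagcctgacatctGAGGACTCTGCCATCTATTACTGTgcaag
M400008289: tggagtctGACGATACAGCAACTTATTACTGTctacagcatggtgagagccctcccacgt
M400005552: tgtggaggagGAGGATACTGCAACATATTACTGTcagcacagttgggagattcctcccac
In the first pair the cysteine codon at the end of the capitals is followed by gca, an alanine codon, as in most mouse heavy chains. In the second pair it is followed by cta and cag, and the letters beyond it read like the loop of a kappa light chain. The label of heavy chain is therefore in doubt for M400008289 and M400005552, which are called light-chain-like here and are given apart. The next oligos lie in framework 2, where a basic residue follows the first tryptophan after 1 other residue, and they had the highest values in 564 Igi relative to C57BL/6, belong to pairs of related sequence or, in M300000431, varied most between samples.
M400005744: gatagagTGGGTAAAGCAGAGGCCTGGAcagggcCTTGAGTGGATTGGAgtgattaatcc
M400006278: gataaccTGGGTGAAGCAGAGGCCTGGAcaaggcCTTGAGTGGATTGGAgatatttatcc
M400009957: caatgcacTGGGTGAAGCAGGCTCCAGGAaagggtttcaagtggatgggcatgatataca
M400007213: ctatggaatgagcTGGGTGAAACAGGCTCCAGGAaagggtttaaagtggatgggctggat
M400006846: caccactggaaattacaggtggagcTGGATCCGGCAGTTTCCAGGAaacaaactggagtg
M400007455: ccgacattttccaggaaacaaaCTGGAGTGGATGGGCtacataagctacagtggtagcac
M400007524: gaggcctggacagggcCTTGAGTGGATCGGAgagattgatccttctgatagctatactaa
M300000431: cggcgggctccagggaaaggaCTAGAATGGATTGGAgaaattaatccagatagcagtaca
M400005744, M400006278, M400009957 and M400007213 carry a lysine codon at that place and M400006846 an arginine codon, while M400007455, M400007524 and M300000431 begin after the first tryptophan codon. The last set holds both T cell receptor oligos, the upper at the start of framework 2 and the lower at the end of framework 3.
M400006106: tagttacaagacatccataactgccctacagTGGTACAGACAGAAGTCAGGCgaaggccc
M400006654: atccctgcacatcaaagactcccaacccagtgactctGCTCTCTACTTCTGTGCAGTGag

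Of the 31 heavy-chain matches, 27 read as heavy-chain framework. Among them 12 matched at the end of framework 2 only, 4 at its start only, 9 at both places and 2 at the end of framework 3. Another 2 were the light-chain-like oligos, and the last 2, M200001030 and M300016050, matched at the end of framework 2 but resembled no other member, with a best identity of 52.3% and 54.5%. Counts are given for the 27, and for all 31 the number above 0 and the median. The 27 are not independent of each other: 19 of them shared a run of at least 20 bases with another member, in 17 pairs. M400008125 and M400009955 were identical at 94.5% of 55 aligned bases, and M400007019 and M400007138 at 93.3% of 60. Outside the 33, only M400007714 shared a run of at least 20 bases with any of them, 25 bases with M400009955. The oligos are 60 bases long, and the files give no mapped position or gene name for any of the 33, so no coordinates are printed.

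Spleen signal was well above background for 69.4% to 75.9% of oligos, except on 564 Igi 4 months replicate 1, where 91.2% were. The C57BL/6 arrays were on slides 2 and 3, 1 each, together with 3 of the 564 Igi arrays per slide, while slide 1 carried only 564 Igi arrays, 4 in number. All levels below are log2 of spleen over reference after background correction and loess, and a difference is 564 Igi minus C57BL/6 on that scale. Of 26290 oligos detected in Cy3 on all arrays of at least 1 group, 26279 were tested, among them all 33 members, and an oligo was called changed at a limma adjusted p under 0.05. The number of arrays limits the precision. The files pair no oligo with a gene, so spleen markers, markers of other cell types and signalling genes could not be read, and their part in the results was not tested.

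Both light-chain-like oligos were lower in 564 Igi than in C57BL/6 at every age. In the main fit M400005552 is the only member given as called. M400008289 entered the test only because it was detected in C57BL/6, the group where it is high. Its values are therefore a description, and neither a p nor a call is given for it. M400005552 also passed through 564 Igi at 4 months. M400008289 stood at 2.08 and 3.30 on the C57BL/6 arrays. All 10 of the 564 Igi arrays were lower (5.3% of all oligos had this order), with -0.06, -0.32 and -0.11 at 4 months, -0.29, -0.24 and 0.10 at 8 months, and 0.10, -0.27, -0.08 and -0.14 at 12 months. They lay within a band of 0.42. The difference was -2.85 (SE 0.27) at 4 months, -2.83 (SE 0.27) at 8 months and -2.78 (SE 0.26) at 12 months. M400005552 stood at 1.32 and 1.96 in C57BL/6. It read -0.31, -0.13 and -0.24 at 4 months, -0.14, -0.07 and -0.25 at 8 months, and 0.02, -0.07, -0.14 and -0.08 at 12 months. Again no array of the strains overlapped, and the difference was -1.86, -1.79 and -1.71 at the 3 ages, with adjusted p = 4.82e-05, 6.56e-05 and 5.97e-05 in limma.

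Over the mean of the 3 ages, the difference of M400008289 was -2.82, and M400005552 was 3.45-fold lower (-1.79, -2.07 to -1.50, limma adjusted p = 1.13e-05). Lower calls took 0.339%, 0.495%, 0.586% and 0.685% of all oligos tested at 4, 8 and 12 months and over the mean of the ages. The spleen signal of both oligos was near background on many 564 Igi arrays. M400008289 was well above background on 2 of 3 arrays at 4 months, 1 of 3 at 8 months and 1 of 4 at 12 months, and M400005552 on 3 of 3, 1 of 3 and 0 of 4. Neither passes a filter that asks for both channels well above background on all 12 arrays. At 12 months, where M400005552 was not well above background on any array, its mean in the Cy3 channel after loess and scaling between arrays was 6.13, against 8.27 in C57BL/6. Set against the lowest detected signal in that channel, it was at least 4.36-fold lower. That bound holds for the Cy3 channel only, where dyes were not swapped, and the spleen over reference value at 12 months was 3.26-fold. With the processed Cy3 signal in place of the ratio, the differences over the mean of the ages were -6.09 and -4.44. That signal had no offset, and near background the size of such differences depends on the floor, so only their direction is read. On slides 2 and 3, 1 C57BL/6 array meets 3 of the 564 Igi arrays. Within these slides the differences of the ratio were -2.28 and -3.33 for M400008289 and -1.45 and -2.12 for M400005552. Fewer cells with such transcripts and less RNA per cell cannot be told apart in whole spleen.

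None of the 27 heavy-chain framework oligos was called in a comparison with C57BL/6, but most of them read higher in 564 Igi. At 4 months, 21 of 27 had a difference above 0, with a median of 0.52, or 1.43-fold. At 8 months it was again 21 of 27, with a median of 0.72, or 1.65-fold. At 12 months 26 of 27 lay above 0, with a median of 0.76, or 1.70-fold. Over the mean of the 3 ages 24 of 27 lay above 0, with a median of 0.60, or 1.51-fold. Among all oligos tested, the shares above 0 were 52%, 49.7%, 50.6% and 51%, and the medians were within 0.01 of 0. Of all 31 pattern matches, 23, 22, 27 and 25 lay above 0, with medians of 0.33, 0.65, 0.72 and 0.57. The comparisons share the same 2 C57BL/6 arrays, so they do not repeat each other independently.

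The shift rested on values that single tests did not separate from the spread. Calls in the higher direction took 0.0685%, 0.129%, 0.32% and 0.198% of all oligos in those 4 comparisons, and 0 of the 27 in each. At an unadjusted p under 0.05 in limma, 7, 10, 10 and 11 of the 27 were higher and 0 were lower, against 5.71%, 6.48%, 5.97% and 7.2% of all oligos higher and 6.9%, 7.48%, 6.74% and 8.39% lower. Every array of the 564 Igi group lay above both C57BL/6 arrays for 11 of the 27 at 4 months (18.1% of all oligos), for 8 at 8 months (13.6%) and for 12 at 12 months (10.2%). With all 10 of the 564 Igi arrays in 1 set this held for 4 of 27 (4.42%), namely M400005744, M400006846, M400007228 and M400008012. The reverse order was seen for 1 of 27 at 8 months, M400007680, whose spleen signal was well above background on 1 of the 3 arrays there, and for 0 of 27 in the others, against 16.6%, 15.2%, 10.1% and 5.3% of all oligos.

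By array, the median of the 27 relative to their C57BL/6 mean was -0.29 and 0.29 on the C57BL/6 arrays themselves. It was 0.51, 0.19 and 0.82 at 4 months, 1.36, 0.029 and 0.81 at 8 months, and 0.56, 0.92, 0.75 and 1.11 at 12 months. The 564 Igi 4 months replicate 2 and 8 months replicate 2 arrays lay below the higher C57BL/6 array, and the other 8 lay above it. The 564 Igi 8 months replicate 2 array had the lowest value of all 10 in 10 of the 27 oligos. Without it, 6 of 27 were called higher at 8 months and over the mean of the ages, and 1 of 27, M400007916, at 12 months, where 2.2%, 1.8% and 1.08% of all oligos were called in either direction at 8 months, over the mean and at 12 months. The 6, the same in both, were M400005744, M400006278, M400006846, M400007524, M400007916 and M400009957. M400006278 then had a difference of 1.87 at 8 months (SE 0.28, limma adjusted p = 0.011, with 0.011 to 0.64 over the alternatives). Without 564 Igi 12 months replicate 1, M400009957 was called at 12 months (1.68, limma adjusted p = 0.037, with 0.037 to 0.93 over the alternatives) and over the mean of the ages (1.58, limma adjusted p = 0.021, with 0.021 to 0.89), where 0.814% and 0.902% of all oligos were called.

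The control arrays and the processing moved the size of the shift and, at 4 months, its direction. At 4 months the median of the 27 was 0.16 without C57BL/6 replicate 1 and 0.15 with the deposited log ratios, each with 15 of 27 above 0, and 0.80 without C57BL/6 replicate 2. At 8 months it was 0.33 without C57BL/6 replicate 1, with 20 of 27 above 0, and 1.11 without 564 Igi 8 months replicate 2. Over the mean of the ages the median of the 27 was 0.33 without C57BL/6 replicate 1 and 1.06 without C57BL/6 replicate 2. It was 1.14 with the Cy3 signal alone, with 25 of 27 above 0, and 0.18 with the deposited log ratios, with 19 of 27 above 0. When spots of uneven local background stayed in the background fit, the median of the 27 was -0.13 at 4 months, with 12 of 27 above 0. At 8 and 12 months it was then 0.37 and 0.76, with 20 and 26 above 0. Over the mean of the ages it was 0.29, with 17 of 27 above 0. The reference signal was well above background on all 12 arrays for 13 of the 27, on some for 12 and on none for 2. Among those 13 oligos, 12 lay above 0 over the mean of the ages, with a median of 0.72. Within slide 2 the median of the 27 over the mean of the ages was 0.83, with 25 above 0, and within slide 3 it was 0.63, with 23 above 0.

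The members below are the 9 with the largest differences in the mean of the ages, and 2 more that are related to one of them or did not overlap between the strains, named after their values had been seen. M400009957, at the start of framework 2 with a lysine codon, stood at 1.46 and 2.27 in C57BL/6. In 564 Igi it ranged from 2.24 to 3.88 with a median of 3.50, and 9 of 10 arrays lay above both controls, the exception being 12 months replicate 1. Its difference was 1.47 (SE 0.36, 2.78-fold, limma adjusted p = 0.091). Its relative M400007213, which was identical at 87.3% of 55 aligned bases, stood at 1.97 and 3.05 in C57BL/6 and between 2.66 and 4.56 in 564 Igi. Here 8 of 10 arrays lay above both controls, with a difference of 1.11 (SE 0.44, limma adjusted p = 0.25).

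M400005744 and M400007524, which share a run of 27 bases across the middle and the end of framework 2, both read high in 564 Igi. M400005744 stood at 0.20 and 0.50 in C57BL/6, and at 1.59, 1.20 and 1.76, then 2.61, 0.97 and 1.70, then 1.26, 2.14, 1.83 and 1.46 at the 3 ages of 564 Igi. No array overlapped, and the difference was 1.30 (SE 0.33, 2.46-fold, limma adjusted p = 0.10). M400007524 stood at 0.74 and 1.70 in C57BL/6 and between 1.62 and 3.46, with a median of 2.62, in 564 Igi. The lowest 564 Igi value came from 8 months replicate 2 and lay between the controls, and the difference was 1.43 (SE 0.42, limma adjusted p = 0.14). M400006278, also with a lysine codon in framework 2, stood at 0.70 and 1.22 in C57BL/6 and between 0.80 and 3.20, with a median of 2.14, in 564 Igi. Of the 10 arrays 9 lay above both controls, the exception again being 8 months replicate 2, and the difference was 1.09 (SE 0.43, limma adjusted p = 0.25).

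M400006846 and M400007455 cover neighbouring, overlapping stretches of arginine-type framework 2, with 28 of 30 aligned bases identical, and among the ages of 564 Igi both had their highest mean at 4 months. M400006846, whose reference signal was well above background on 0 of 12 arrays, stood at 0.77 and 0.85 in C57BL/6. It read 2.45, 1.96 and 2.57 at 4 months, 2.50, 1.27 and 2.55 at 8 months, and 0.90, 1.82, 0.95 and 1.99 at 12 months, so all 10 lay above both controls but 2 of the 12-month arrays only just. Its difference was 1.52 (SE 0.41, limma adjusted p = 0.18) at 4 months and 1.14 (SE 0.35, limma adjusted p = 0.15) over the mean of the ages, and it was called at 4 months (limma adjusted p = 0.019, with 0.019 to 0.74 over the alternatives) when only the arrays of those 2 groups were fitted, where 0.75% of all oligos were called. Over the alternatives, the 4-month difference of M400006846 ran from 0.49 to 2.23. M400007455 stood at 1.87 and 2.31 in C57BL/6 and read 3.75, 3.60 and 4.60 at 4 months, 3.97, 2.59 and 4.30 at 8 months, and 1.94, 3.79, 2.17 and 3.52 at 12 months. The 12-month replicates 1 and 3 were low in both oligos and lay within the C57BL/6 range of M400007455. Its difference was 1.89 (SE 0.60, limma adjusted p = 0.25) at 4 months, the largest of the 27 there, and 1.39 (SE 0.51, limma adjusted p = 0.22) over the mean of the ages.

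The framework 3 oligos M400005043 and M400007916, which are printed above, share 23 bases. M400007916 stood at 0.45 and 0.72 in C57BL/6 and between 0.69 and 2.57, with a median of 1.72, in 564 Igi, with 9 of 10 arrays above both controls. It was 2.15-fold higher (SE 0.34 on the log2 scale, limma adjusted p = 0.16), and at 12 months it was called (1.18, limma adjusted p = 0.028, with 0.028 to 0.90 over the alternatives) when only those 2 groups were fitted, where 0.712% of all oligos were called. M400005043 ranged from 1.49 to 3.43 in 564 Igi against 1.44 and 2.22 in C57BL/6, a difference of 0.82 (SE 0.37, limma adjusted p = 0.31). Of the other oligos without overlap between the strains, M400007228 stood at 0.90 and 1.23 in C57BL/6 and between 1.51 and 2.92, with a median of 1.93, in 564 Igi. Its difference was 0.97 (SE 0.31, limma adjusted p = 0.17). M400008012 stood at 1.81 and 1.91 in C57BL/6 and between 2.05 and 3.49 in 564 Igi, a difference of 0.73 (SE 0.32, limma adjusted p = 0.30). With the deposited log ratios 3 of the oligos named here turned in direction, M400009957 to -0.16, M400007455 to -0.34 and M400007228 to -0.59. Their reference signal was well above background on 9, 10 and 5 of the 12 arrays. For M400006846 and M400008012, which kept their direction, it was so on 0 and 9 of the 12. What turned the 3 was not tested.

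At the other end stood M400007308, an oligo at the end of framework 2, with 1.51 and 2.88 in C57BL/6 and a range of 0.76 to 3.00 in 564 Igi. Its difference of -0.48 (SE 0.49, limma adjusted p = 0.70) was smaller than its error, and it read 0.20 without C57BL/6 replicate 2. M400003363 (-0.28) and M400007019 (-0.07) were the only others of the 27 below 0. The remaining 13 lay between 0.050 for M300000431 and 0.95 for M400005731. The lone matches M200001030 and M300016050 differed by -0.08 (SE 0.21, limma adjusted p = 0.90) and 0.21 (SE 0.11, limma adjusted p = 0.39).

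Members at each place in the domain lay mostly above 0. The 11 oligos that hold the first tryptophan codon of framework 2 and a lysine codon after it had a median difference of 0.60 over the mean of the ages, with 10 above 0. The 5 with an arginine codon there had a median of 0.58, with 4 above 0, and the 9 that begin after that tryptophan a median of 0.40, with 8 above 0. Both framework 3 oligos lay above 0, with a median of 0.96. These medians were not tested against each other.

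The 27 varied between samples of the same group more than most oligos did. Their standard deviation within groups, pooled over the 4 groups with 8 residual degrees of freedom, had a median of 0.56 and ran from 0.28 to 0.89. Over the oligos with a value on every array it had a median of 0.16. Of the 27, 26 lay above the 90th percentile of all oligos, 0.31, the exception being M400007680. In C57BL/6 the median standard deviation of the 27 was 0.45, against 0.11 for all oligos. At 4, 8 and 12 months of 564 Igi it was 0.31, 0.81 and 0.51, against 0.11, 0.14 and 0.15. All 13 of the 27 whose reference signal was well above background on every array were above the 90th percentile recomputed over such oligos, and with the Cy3 signal alone 23 of 27 were. With the deposited log ratios 17 of 27 were.

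M300000431, at the end of framework 2, varied most (standard deviation 0.89). It stood at 1.26 and 2.19 in C57BL/6, at 1.23, 1.30 and 0.88 at 4 months, and at 1.78, 1.39 and 0.85 at 8 months. At 12 months it read 2.37, 1.80, 2.44 and 4.82, so 1 array lay more than 2 log2 units above every other array in the set. The same array, 564 Igi 12 months replicate 4, was highest for M400005956 at 4.86, where the other 564 Igi arrays lay between 2.17 and 4.13. M400007019 followed with a standard deviation of 0.85, from 1.19 on 564 Igi 8 months replicate 3 to 3.67 on 8 months replicate 1. M400005731 and M400007852, which share 51 of 57 aligned bases and an arginine codon in framework 2, peaked together on 564 Igi 12 months replicate 3, at 4.63 and 4.46. Of the 27, 12 had their highest 564 Igi value on 8 months replicate 1, 5 on 12 months replicate 4 and 4 on 12 months replicate 3.

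Oligos of related sequence tended to deviate together. Over the 12 arrays, the correlation of deviations from the group means had a median of r = 0.74 in the 17 pairs of the 27 that share at least 20 bases, from -0.25 to 0.94, with 14 above 0.5. In the other 334 pairs the median was r = 0.38, from -0.80 to 0.97, with 118 above 0.5. These pairs share arrays and members, so the values are a description. M400006846 and M400007455 had r = 0.94, M400005731 and M400007852 r = 0.93, and M400008125 and M400009955 r = 0.85. The highest value of all, r = 0.97, belonged to M400006278 in framework 2 and M400007916 in framework 3, which share no run longer than 5 bases. The lowest among the related pairs, r = -0.25, belonged to M400007228 and M400007852.

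No member was called between ages of 564 Igi, where limma called 0%, 0.00381% and 0% of all oligos at 8 against 4, 12 against 4 and 12 against 8 months. At an unadjusted p under 0.05, 1 of the 27 was higher and 0 lower at 8 against 4 months, 2 higher and 2 lower at 12 against 4 months, and 1 higher and 0 lower at 12 against 8 months. Among all oligos 1.59%, 3.69% and 2.07% were higher at that level and 1.55%, 3.94% and 2.15% lower. The medians of the 27 were 0.20, 0.29 and 0.076, with 21, 23 and 15 above 0, against 46.9%, 49.7% and 51.2% of all oligos. Within slides the first was 0.96 on slide 1 and -0.52 on slide 2, and the last was -1.04, 0.90 and 0.016 on slides 1, 2 and 3, so neither kept a direction. Within slides the median at 12 against 4 months was 0.090 and 0.15 on slides 1 and 2. From 4 to 12 months the largest difference upwards was in M300000431 (1.72, SE 0.57, limma adjusted p = 0.55) and the largest downwards in M400007455 (-1.13, SE 0.50, limma adjusted p = 0.65). M400006846 followed at -0.91 (SE 0.34, limma adjusted p = 0.61) and M400005030 stood at 0.80 (SE 0.32, limma adjusted p = 0.62). With spots of uneven background kept, M400006846 instead read 0.12.

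The T cell receptor oligos varied between samples about as much as a typical oligo, with standard deviations of 0.15 for M400006654 and 0.14 for M400006106. These lay at the 47th and 40th percentile of the oligos with a value on every array, a little below the median. M400006654, at the end of framework 3, stood at -0.68 and -0.44 in C57BL/6. In 564 Igi it read -0.66, -0.76 and -0.50 at 4 months, -0.82, -0.86 and -0.89 at 8 months, and -0.92, -0.88, -1.13 and -1.30 at 12 months. All arrays of 8 and 12 months lay below both controls (15.2% and 10.1% of all oligos did so), while those of 4 months overlapped them. The difference from C57BL/6 was -0.08 (SE 0.14, limma adjusted p = 0.84) at 4 months, -0.30 (SE 0.14, limma adjusted p = 0.36) at 8 months and -0.50 (SE 0.13, limma adjusted p = 0.13) at 12 months. From 4 to 12 months of 564 Igi it was -0.41 (SE 0.11, limma adjusted p = 0.47), and the arrays of those ages did not overlap, as for 4.35% of all oligos in that direction. None of these passed the test. The 12-month difference was -0.20 within slide 2 and -0.78 within slide 3.

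M400006106, at the start of framework 2 of a T cell receptor, stood at 0.27 and 0.52 in C57BL/6 and between 0.14 and 0.57, with a median of 0.31, in 564 Igi. The strains overlapped, and the difference over the mean of the ages was -0.056 (SE 0.11, 95% interval -0.30 to 0.18, limma adjusted p = 0.86). Its spleen signal was well above background on 10 of 12 arrays and its reference signal on none. For M400006654, both channels were well above background on all 12, and the difference over the mean of the ages was -0.29 (SE 0.12, 95% interval -0.55 to -0.04, limma adjusted p = 0.25).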

How the data were processed

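The 12 arrays carry spleen RNA in Cy3 and a universal reference RNA in Cy5, with no dye swap, per the labels. Agilent Feature Extraction 11.5.1.1 read the scans, per the file headers, and the design names build mm8. The authors deposited intensity columns, on the scanner's linear scale, that hold each spot's mean and median local background in both channels and the processed signals, which Feature Extraction had background-subtracted and dye-normalized by lowess. They also deposited a log10 ratio of reference over sample, whose sign was turned here and which was multiplied into log2, and flags for spots well above background, saturated or uneven. Values of the deposited series table match these log10 ratios to within 0.005, with array medians of 0 except 0.00197 on 1, so its scale and direction are those of the ratio and no gene was centred. Which test the authors used is not known here.

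With limma 3.58.1 in R 4.3.3, normexp (offset 50) removed the background and loess, giving control spots a weight of 0, normalized each array. Spots of uneven local background were given their array's median background for this fit and then left out, together with spots of uneven signal, 17 to 80 spots an array. On 3 arrays (564 Igi 8 months replicate 2 and 4 months replicates 1 and 3) this moved the 1st percentile of corrected Cy3 signal from 375, 761 and 248 to 58.5, 61.6 and 58.8. That repair had been chosen once counts of changed oligos were known. Saturated spots (0 in Cy3, 5 in Cy5) stayed in. All 12 arrays entered 1 fit (lmFit, eBayes) with a coefficient for each group, and Benjamini-Hochberg adjustment ran over the 26279 oligos tested, of which 280 lacked a value on at least 1 array. The procedure was also run on simulated data with independent errors for each oligo. The members deviate together, so that run cannot show how reliable their results are. In all, 7 comparisons were made. The members, the patterns and the lists were chosen with earlier results of these data known. Oligos other than the light-chain-like and the T cell receptor oligos were named after their values had been seen. The split of the 31 heavy-chain matches into 27, 2 and 2 rests on sequence, with a least identity of 60% to another member, and was made after values were known. Planned marker and pathway lists were not read, since no oligo is paired with a gene in the tables used here. Alternatives were an offset of 16, uneven spots kept, median centring, the deposited log ratios, the Cy3 signal alone scaled to its 75th percentile, other filters, slide or replicate number as a block, single slides, only the groups compared, and each array left out in turn.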

Additional observations from a re-analysis of the deposited data

Results flagged for a closer look

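At 12 months, the group with 4 arrays, 5 of the 33 members had 1 array far from the other 3 by a gap that takes up most of the range of the 4, past Dixon's 95% limit. Chance alone marks about 1 in 20 such groups. The rule was applied to the members only, so the share over all oligos is not known. Members also vary together, M400005043 and M400008125 at r = 0.96, so the count is a description. 564 Igi 12 months replicate 4 was high for M400005043 at 3.43, where the others lay between 2.65 and 2.77, and for M400008125 at 4.92, where they lay between 4.09 and 4.18. Replicate 3 was high for M400007680 at 1.27 against 0.39 to 0.50. Replicate 1 was low for M400008391 at 1.91 against 2.60 to 2.71 and for M400009957 at 2.24 against 3.47 to 3.62. M400005043 and M400008125 thus stood out on the array that was also highest for M300000431.

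In 2 oligos the arrays of 564 Igi lay wholly below the C57BL/6 mean at 1 age and wholly above it at another. Only the members were searched for this pattern. The share over all oligos is therefore not known, and the count is a description. All 3 arrays of M300000431 lay below the C57BL/6 mean at 4 months and all 4 above it at 12 months, and the means differed by 1.72. The highest 4-month array (1.30) and the lowest 12-month array (1.80) lay between the C57BL/6 arrays (1.26 and 2.19). Without 12 months replicate 4 the means differed by 1.07. M400007680 lay above the C57BL/6 mean on all arrays at 4 and 12 months and below it on all at 8 months. Its means differed by -0.34 from 4 to 8 months and by 0.39 from 8 to 12 months. Its reference signal was well above background on 0 of 12 arrays and its spleen signal on 1 of 3 at 8 months and 3 of 4 at 12 months, so these values are near background and their direction is not settled. As differences in effect between ages these were not tested. The limma comparisons between ages, which take the same arrays, called neither oligo.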

How the results depend on the processing

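Both light-chain-like oligos kept their direction in every alternative that tested them. M400005552 also stayed past the threshold in those that kept both C57BL/6 arrays. M400008289 had entered through C57BL/6 alone, so its values remain a description. Requiring both channels above background on all arrays left 15 heavy-chain matches without either, and 0 members were called in all 4 comparisons with C57BL/6. With that filter 13 of 13 heavy-chain framework oligos were above the 90th percentile of spread (17 of 27 with deposited log ratios). The framework median kept its sign in all comparisons with C57BL/6 except at 4 months with uneven spots kept (-0.13, and 0.93 at 12 against 4 months). With Cy3 alone it was 1.26 at 8 months and 1.14 over the mean of the ages. Within slide 2 it was 0.27 at 8 and 1.23 at 12 months, -0.52 at 8 against 4 and 0.90 at 12 against 8 months. Within slide 1 the last 2 were 0.96 and -1.04. With arrays left out it ran from 0.16 to 0.80, 0.33 to 1.11, 0.54 to 1.20 and 0.33 to 1.06 at 4, 8 and 12 months and over the mean of the ages.

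Framework oligos called numbered 1 at 4 and 1 at 12 months with only the groups compared (0.75% and 0.712% of all oligos). Without 564 Igi 8 months replicate 2 they numbered 6 at 8 months, 1 at 12 months and 6 over the mean. In that fit 2.2%, 1.08% and 1.8% of all oligos were called. Without 564 Igi 12 months replicate 1, M400009957 was called at 12 months and over the mean (0.814% and 0.902% of all oligos). Single differences reversed for M400009957 (-0.16, and -0.13 at 12 months), M400007455 (-0.34) and M400007228 (-0.59) with deposited log ratios, for M400006846 at 12 against 4 months with uneven spots kept (0.12), and over the mean without C57BL/6 replicate 2 for M400006106 (0.070, -0.18 without replicate 1) and M400007308 (0.20, -1.16). M400006106 was 0.055 within slide 2.

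The T cell receptor median was -0.049, -0.16, -0.31 and -0.17 at 4, 8 and 12 months and over the mean, and -0.11, -0.26 and -0.15 at 8 against 4, 12 against 4 and 12 against 8 months. With Cy3 alone these 7 were 0.11, -0.41, -0.89, -0.40, -0.52, -0.99 and -0.48. With deposited log ratios it was -0.62 at 12 months, -0.28 over the mean, and -0.0032, -0.52 and -0.52 between ages. With both channels above background only M400006654 was left, at -0.30, -0.50, -0.29, -0.21 and -0.41 for 8 and 12 months, the mean, 8 against 4 and 12 against 4. Median centring gave 0.092 at 4 months and -0.36 at 12 against 4. Within slide 2 it was 0.11, -0.052 and -0.0055 at 4 and 12 months and over the mean, and -0.17 and 0.027 at 12 against 4 and 12 against 8. Within slide 3 it was -0.51, -0.42 and -0.28 at 12 months, over the mean and at 12 against 8. With arrays left out it ran from -0.17 to 0.075, -0.28 to -0.036, -0.44 to -0.19 and -0.30 to -0.050 in the comparisons with C57BL/6.

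Over all oligos, 18, 34, 84 and 52 were called higher and 89, 130, 154 and 180 lower in the comparisons with C57BL/6. In both directions, both channels gave 54, 83 and 145 at 4 and 8 months and over the mean, deposited log ratios 67, 85 and 125, median centring 70, 104, 128 (12 months) and 127, uneven spots kept 99 at 8 and 110 at 12 months, and only the groups compared 197 at 4 and 69 at 8 months. At 12 against 4 months 1 was called, 2 with Cy3 alone and with uneven spots kept, 3 with median centring and an offset of 16, 6 with only those groups and 0 with deposited log ratios or a block. At 12 against 8 months 0 were called, and 1 with both channels, with uneven spots kept and with only those groups. With arrays left out the counts ran from 69 to 206, 101 to 577, 159 to 284 and 154 to 474, and from 0 to 8 and 0 to 2 at 12 against 4 and 12 against 8 months. The cause of these shifts was not tested.

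Replicate numbers did not pair the samples: same-numbered arrays correlated in their deviations at r = -0.23 to 0.29, over 0.1 in 5 of 15 pairs. Among pairs of different number, 13 of 38 were over 0.1. Arrays of different groups on the same slide correlated at r = 0.085 to 0.30 on slide 2 and 0.087 to 0.30 on slide 3. On slide 1 the range was -0.13 to 0.29. The main fit held no term for slide. With slide as a block the framework median over the mean was 0.72, with 22 of 27 above 0. With the replicate block the framework median over the mean was 0.53, and oligos called at 12 against 4 months went from 1 to 0.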
